A study of Mus musculus with 9 samples.

Results

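Complement is a set of plasma and cell-surface proteins that mark microbes, dying cells and immune complexes for removal. The 9 complement genes described here, C1qa, C1qb, C1qc, C3, Cfb, Cfp, C3ar1, C5ar1 and Cd55, were selected by gene symbol as components and receptors of complement that splenic myeloid cells can make, and each had 1 row among the 46072 genes of the deposited tables. RNA sequencing was performed on monocytes that were enriched from mouse spleens by negative selection, without stimulation in culture, with 3 mice in each of 3 groups. All mice were female C57BL/6, obtained at 8 to 10 weeks of age. Mice of the Con group received water by gavage for 6 days. Those of the Van group received vancomycin, an oral antibiotic that is poorly absorbed, by gavage for 6 days, with a daily total of 2 mg split into doses of 1 mg. VanLip mice had the same vancomycin course and then L654, a serine-glycine lipid that bacteria of the Bacteroidota phylum make and that engages Toll-like receptor 2, by the retro-orbital route on days 7, 9 and 11, which were rest days 0, 2 and 4. Monocytes of all 3 groups were collected after 8 days of rest (the labels give a range of 6 to 8 days), and no group received L654 without vancomycin. The paper used vehicle injections in its lipid experiments but does not state them for the Con and Van mice of the RNA groups. If those mice were not injected, injection and handling cannot be told apart from L654.

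Complement can be started in several ways. C1q, a protein assembled from the A, B and C chains encoded by C1qa, C1qb and C1qc, recognises antibody and altered surfaces and opens the classical pathway. Lectins such as ficolins open the lectin pathway. The alternative pathway runs through C3, the central protein that every route cleaves, factor B (Cfb), the protease of the alternative C3 convertase, and properdin (Cfp), which stabilises that convertase. The fragments C3a and C5a signal through the receptors encoded by C3ar1 and C5ar1, and CD55 (Cd55), or decay-accelerating factor, dissociates convertases on host cells. Most circulating complement is made by the liver, whereas tissue macrophages are a main source of C1q and myeloid cells a main source of properdin.

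On the GRCm38 build, and by GENCODE annotation, all 9 genes were protein coding and on the minus strand. The C1q chains are neighbours, with C1qb at chr4:136880129-136886187, C1qc at chr4:136889804-136893065 and C1qa at chr4:136895917-136898803, so that the 3 genes span 18675 bases. C3 lies at chr17:57203970-57228136, Cfb at chr17:34856374-34862518 and Cfp at chrX:20925454-20931555. C3ar1 lies at chr6:122847138-122856161, C5ar1 at chr7:16246743-16259540 and Cd55 at chr1:130439027-130462744. Cfb overlaps Gm20547 on the same strand, which was at 0.015 to 0.173 FPKM (a level per length of transcript and per library size, counted in sequenced fragments), and Cd55 overlaps the antisense gene Gm16083, which was listed at 0 in all 9 libraries.

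Promoter windows from 250 bases before to 50 bases after the RefSeq start site were at hand for 7 of the 9 genes (GRCm38.p6). Those of the neighbouring C1qb and C1qc are shown because their transcripts varied together over the libraries. Those of C5ar1 and Cd55 are shown because these were the genes that passed the test in at least 1 comparison. Each is written 5′ to 3′ in the direction of transcription, on the minus strand, with capitals for letters that matched a motif searched on both strands. The windows were chr4:136886151-136886450 (C1qb), chr4:136892865-136893164 (C1qc), chr7:16259289-16259588 (C5ar1) and chr1:130462695-130462994 (Cd55).
C1qb: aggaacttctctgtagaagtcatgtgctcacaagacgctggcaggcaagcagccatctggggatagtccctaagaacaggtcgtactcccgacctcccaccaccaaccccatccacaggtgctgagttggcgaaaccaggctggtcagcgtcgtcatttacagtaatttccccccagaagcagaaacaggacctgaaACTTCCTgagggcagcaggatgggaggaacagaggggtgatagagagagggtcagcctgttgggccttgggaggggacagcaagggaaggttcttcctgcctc
C1qc: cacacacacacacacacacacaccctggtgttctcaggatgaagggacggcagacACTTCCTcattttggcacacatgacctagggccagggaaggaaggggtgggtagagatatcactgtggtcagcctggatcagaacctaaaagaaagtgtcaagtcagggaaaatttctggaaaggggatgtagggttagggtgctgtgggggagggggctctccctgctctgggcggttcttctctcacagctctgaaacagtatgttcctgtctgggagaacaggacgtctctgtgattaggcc
C5ar1: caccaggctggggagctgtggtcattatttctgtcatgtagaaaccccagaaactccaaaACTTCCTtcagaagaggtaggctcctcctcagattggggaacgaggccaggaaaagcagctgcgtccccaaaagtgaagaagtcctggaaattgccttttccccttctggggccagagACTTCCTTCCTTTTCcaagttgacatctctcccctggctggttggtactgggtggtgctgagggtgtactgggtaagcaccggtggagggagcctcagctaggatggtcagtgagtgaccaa
Cd55: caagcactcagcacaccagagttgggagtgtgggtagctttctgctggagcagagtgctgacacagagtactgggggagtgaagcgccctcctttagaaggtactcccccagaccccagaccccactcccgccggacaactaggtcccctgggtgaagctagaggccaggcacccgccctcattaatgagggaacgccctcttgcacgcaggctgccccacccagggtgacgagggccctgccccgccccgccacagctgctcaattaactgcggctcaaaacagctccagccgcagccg

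The ETS and PU.1 type motif AGGAAGT, read on the other strand as ACTTCCT, was found in C1qb starting at position -53 from the start site, in C1qc at -195 and in C5ar1 at -190 and -72, thus in 3 of the 7 windows. The share of all 32851 promoters in the same table that held it was 9.35%. In C5ar1 the second match overlapped the interferon response type motif GAAANNGAA, found on the other strand at -66, which 8.56% of all promoters held. The C/EBP type motif TTGCNNAA was found in C3 at -45 (10.8% of all promoters), and the AP-1 type motif TGANTCA in C3ar1 at -22 (7.81%). The NF-kB type motif GGGANTTTC was in none of the 7 windows and in 1.11% of all promoters, and the Cd55 and Cfp windows held none of the 5 motifs. These matches are descriptions of letters and not of bound sites.

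The deposited counts summed to between 43070361 and 61383806 per library in Con and Van and to between 170503470 and 184720704 in VanLip. The commonest low count, which gives the worth of 1 read, was 1.33 in every Con and Van library and 2.00 in every VanLip library, so that depth and count scale changed with the group and cannot be told apart from L654 in any comparison with VanLip. Monocyte markers were abundant, with Lyz2 at 6428 to 9154 FPKM and Csf1r at 527.6 to 642.6. All 8 red pulp macrophage markers were also present, among them Hmox1 at 495.7 to 764.4 FPKM and Vcam1 at 129.9 to 238.1, and erythroid markers were higher in both treated groups than in Con (5 of 6 called in Van and 6 of 6 in VanLip). VanLip replicate 1 stood apart, with the highest FPKM of the 9 libraries for C3, Cd55, Fn1, Chil3 and Marco, and the fold changes of the 9 genes that it moved most are given with and without it.

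The 9 genes covered a wide range of levels, with the largest steps in Con between Cfp and Cfb and between C5ar1 and Cd55. In Con, mean FPKM was 242.8 ± 35.2 for C1qa, 234.7 ± 32.9 for C1qc and 216.3 ± 12.4 for C1qb (SD, n = 3), which placed these 3 genes between rank 253 and rank 282 of the 22784 genes with a value above 0. C3 at 154.1 ± 4.22 and Cfp at 151.6 ± 6.60 followed, and their library values overlapped. A 7.32-fold step in mean FPKM separated Cfp from Cfb at 20.7 ± 4.53, below which came C5ar1 at 14.0 ± 1.21. Cd55 at 1.52 ± 0.352 and C3ar1 at 0.303 ± 0.0921 were the lowest, 9.19-fold and a further 5.01-fold down. The neighbours in this order that stood apart in every Con library were C1qb over C3, Cfp over Cfb, Cfb over C5ar1, C5ar1 over Cd55 and Cd55 over C3ar1. The order changed little in the treated groups. In Van the mean of Cfp was above that of C3, and in both Van and VanLip the mean of C5ar1 was above that of Cfb, in each case with overlapping libraries. In VanLip the libraries of C1qb and C3 and those of C3 and Cfp also overlapped. The largest step was 8.00-fold in Van, from Cfb to Cd55, and 9.56-fold in VanLip, from Cd55 to C3ar1.

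**Figure D1:**
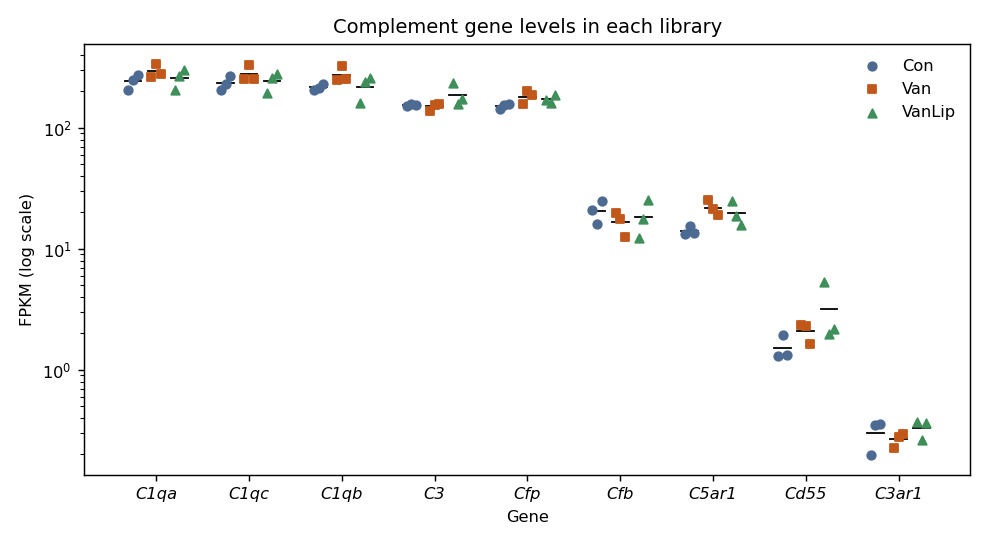
FPKM (log axis) of the 9 complement genes in each of the 9 libraries, with 1 point per library in replicate order, symbols by group and a bar at the group mean (n = 3). The C1q chains, C3 and Cfp lie above 100 FPKM in every library, Cfb and C5ar1 between 12.2 and 25.3 FPKM, and the VanLip replicate 1 point of Cd55 lies at 5.33 FPKM against 2.19 or less in the other VanLip libraries.

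The C1q chains had point estimates above Con after vancomycin, and none of the 3 passed the test. For C1qb, which encodes the B chain, FPKM was 206.8, 211.7 and 230.3 in Con, 248.8, 321.5 and 255.1 in Van, and 161.4, 238.0 and 257.2 in VanLip (replicates 1, 2 and 3 in each case, here and below). Every Van library lay above every Con library, whereas VanLip spread on both sides of Con. The log2 fold change of C1qb between Van and Con was 0.33 (SE 0.15, adjusted p = 0.237 by the DESeq2 Wald test with Benjamini-Hochberg adjustment over all genes, from which all adjusted p-values come unless stated). C1qa, the A chain gene, was at 205.7, 247.0 and 275.8 FPKM in Con, 263.4, 339.6 and 278.1 in Van, and 206.8, 267.6 and 301.4 in VanLip. C1qc, the C chain gene, was at 204.3, 230.2 and 269.6 FPKM in Con, 252.9, 331.8 and 252.9 in Van, and 192.2, 257.6 and 279.3 in VanLip. For both of these genes Con and Van overlapped, with log2 fold changes of 0.26 (C1qa, SE 0.14, adjusted p = 0.394) and 0.24 (C1qc, SE 0.15, adjusted p = 0.487). The C1qb value would count as called in a fit of the Con and Van libraries alone (adjusted p = 0.00823) and in the fit without VanLip replicate 1 (adjusted p = 0.0115), so that the call changed with the libraries that shared the estimate of spread.

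Against Con, the VanLip values of the C1q chains were centred near no difference, with log2 fold changes of 0.07 for C1qa, -0.00 for C1qb and 0.03 for C1qc (adjusted p = 0.865, 0.996 and 0.950). The 95% intervals of the fold ran from 0.86 to 1.28 for C1qa, from 0.81 to 1.22 for C1qb and from 0.84 to 1.25 for C1qc. Without VanLip replicate 1 the log2 fold changes were 0.20, 0.17 and 0.17. Against Van all 3 point estimates were below 0, at -0.19 for C1qa, -0.34 for C1qb and -0.21 for C1qc (adjusted p = 0.505, 0.149 and 0.466). The low VanLip replicate 1 carried much of that difference, since without it the values were -0.06 for C1qa, -0.17 for C1qb and -0.07 for C1qc (adjusted p = 0.888, 0.419 and 0.862). Without VanLip replicate 3 the C1qb value was -0.47 and passed the test (adjusted p = 0.0211).

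The 3 chains kept close to 1 ratio in every library. C1qa was at 0.995 to 1.28 times C1qb and at 1.01 to 1.10 times C1qc in FPKM. Their summed FPKM was 616.8, 688.9 and 775.7 in Con, 765.1, 992.9 and 786.2 in Van, and 560.4, 763.2 and 838.0 in VanLip, or 0.144% to 0.251% of all FPKM in a library. The sum was highest in Van replicate 2 and lowest in VanLip replicate 1. Over the 9 libraries, which share their groups, log2(FPKM + 1) of C1qa correlated with that of C1qc at r = 0.98 and with that of C1qb at r = 0.91.

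Markers of red pulp macrophages, the resident iron-recycling phagocytes of the spleen, varied together with C1q to differing degrees. Their summed FPKM (8 of 8 detected) was 1031 to 1239 in Con, 1156 to 1571 in Van and 1043 to 1248 in VanLip, with Van replicate 2 highest and Con replicate 1 lowest. Vcam1, an adhesion molecule of these cells, was called higher in Van than in Con (log2 fold change 0.46, adjusted p = 0.0106) and lower in VanLip than in Van (-0.50, adjusted p = 0.00176), and it was the only one of the 8 markers called in either comparison. Over the 9 libraries its log2(FPKM + 1) correlated with that of C1qb at r = 0.87, that of C1qa at r = 0.84 and that of C1qc at r = 0.81, given as a description. Over all 8 markers r ran from 0.50 to 0.87 for C1qb, from 0.51 to 0.84 for C1qa and from 0.49 to 0.83 for C1qc, and Adgre1 was the lowest for each. Such values were not particular to C1q or to these markers. Cfp correlated with Hmox1 at r = 0.76 and with Vcam1 at r = 0.71. C1qb correlated with the nonclassical monocyte marker Itgal at r = 0.72 (0.46 without VanLip replicate 1). Without that library, r of C1qb fell from 0.79 to 0.59 with Slc40a1 and from 0.81 to 0.63 with Spic. It rose from 0.55 to 0.86 with Cd163 and from 0.50 to 0.77 with Adgre1. Whether red pulp macrophages contributed to the C1q values was not tested, and in bulk RNA fewer cells of a type and less RNA per cell cannot be told apart.

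**Figure D2:**
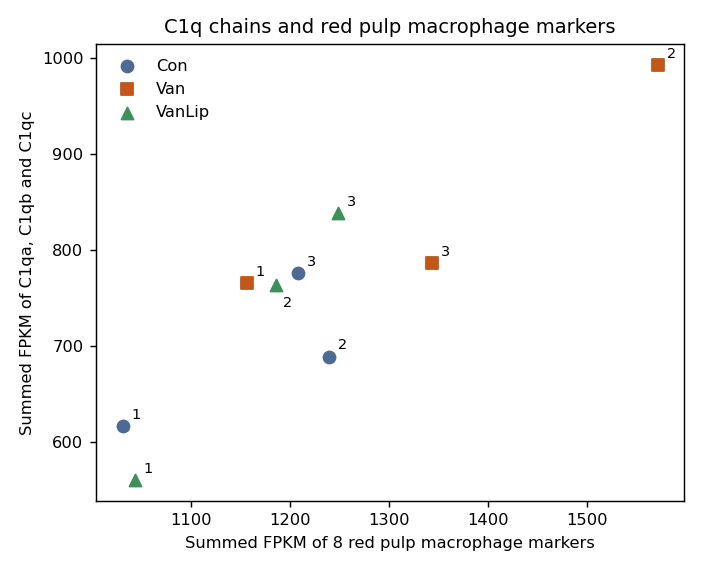
Summed FPKM of C1qa, C1qb and C1qc (vertical axis) against summed FPKM of 8 red pulp macrophage markers (horizontal axis) in each library, with 1 point per library, symbols by group and replicate numbers beside the points; neither axis starts at 0. Van replicate 2 is highest on both axes, at 992.9 and 1571, and Con replicate 1 and VanLip replicate 1 are lowest, at 616.8 and 1031 and at 560.4 and 1043.

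C3, the protein on which all pathways converge, had nearly the same mean in Con and Van. Its FPKM was 150.4, 158.7 and 153.2 in Con, 137.9, 153.9 and 158.7 in Van, and 233.4, 156.9 and 171.4 in VanLip. The first VanLip replicate was above all other libraries, and the other VanLip libraries were within or just above the range of Con and Van. The fold for Van over Con was 0.97 (95% interval 0.80 to 1.16, adjusted p = 0.949). In VanLip the log2 fold change of C3 was 0.27 against Con (SE 0.13, adjusted p = 0.253) and 0.32 against Van (SE 0.13, adjusted p = 0.118). Without VanLip replicate 1 these values were 0.07 and 0.12, and without VanLip replicate 2 the second one was 0.44 and passed the test (adjusted p = 0.0110). C3 correlated over the 9 libraries with Fn1 (r = 0.87, or 0.67 without VanLip replicate 1), 1 of 5 classical monocyte markers whose summed FPKM was 1061 to 1313 in Con, 862.0 to 1566 in Van and 1314 to 2298 in VanLip, and the part of that list in the C3 values was not tested.

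Properdin transcripts were higher in Van in every library, by a small margin. Cfp FPKM was 144.1, 154.2 and 156.4 in Con, 157.6, 201.1 and 185.4 in Van, and 169.1, 159.7 and 186.0 in VanLip. Every library of both treated groups was above the highest Con library, but Van replicate 1 at 157.6 was just above Con replicate 3 at 156.4. The log2 fold change of Cfp was 0.25 for Van (SE 0.10, unadjusted p = 0.00956, adjusted p = 0.131) and 0.16 for VanLip against Con (SE 0.10, adjusted p = 0.366), and neither passed the test. Leaving out Van replicate 1 brought the Van value to 0.33 (adjusted p = 0.00824), and the fit of Con and Van alone gave 0.25 (adjusted p = 0.0477). VanLip and Van overlapped, with a fold of 0.94 (95% interval 0.83 to 1.07).

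Factor B transcripts varied more between mice of 1 group than between groups. Cfb FPKM was 21.1, 16.0 and 25.0 in Con, 19.9, 17.8 and 12.5 in Van, and 12.2, 17.6 and 25.3 in VanLip. All 3 groups overlapped. The 95% interval of the fold was wide, from 0.54 to 1.20 for Van over Con, from 0.58 to 1.29 for VanLip over Con and from 0.72 to 1.61 for VanLip over Van (adjusted p = 0.734, 0.782 and 0.911). Without VanLip replicate 1, the lowest of the 9 libraries for Cfb, the log2 fold change went from -0.21 to -0.00 against Con and from 0.11 to 0.32 against Van.

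C5ar1, the receptor through which the C5a fragment attracts and activates myeloid cells, was the one complement gene of the 9 that passed the test between Van and Con. Its FPKM was 13.2, 15.4 and 13.4 in Con, 25.3, 21.3 and 19.0 in Van, and 24.8, 18.6 and 15.6 in VanLip. Every Van library was above every Con library, and so was every VanLip library, the lowest of which was 15.6 against a highest Con value of 15.4. In Van, C5ar1 was 1.56-fold higher than in Con (95% interval 1.24 to 1.96, log2 fold change 0.64, SE 0.17, adjusted p = 0.00757). In VanLip it was 1.39-fold of Con (95% interval 1.11 to 1.75), which did not pass the test (log2 fold change 0.47, SE 0.17, adjusted p = 0.0639). VanLip and Van overlapped for C5ar1, with a log2 fold change of -0.17 (SE 0.17, adjusted p = 0.659), so these libraries did not separate the level of C5ar1 after L654 from that after vancomycin alone, with a fold between 0.71 and 1.12. That log2 fold change was -0.39 without VanLip replicate 1 (adjusted p = 0.0523).

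The size of the C5ar1 difference in Van was steadier than its call. Its log2 fold change was 0.51 to 0.73 when any 1 library was left out, and 0.60 to 0.64 over the other settings. The call was lost by the edgeR quasi-likelihood test (adjusted p = 0.110) and by limma on log2(FPKM + 1) (adjusted p = 0.254), and without Con replicate 1 (adjusted p = 0.0562), Con replicate 3 (adjusted p = 0.0674) or Van replicate 1 (adjusted p = 0.0655). For VanLip against Con, C5ar1 passed with TMM library sizes (adjusted p = 0.0452) and had a log2 fold change of 0.25 without VanLip replicate 1 (adjusted p = 0.316). Cell type markers moved in the same comparison as the C5ar1 call in Van. Ccr2, the chemokine receptor of classical monocytes, was the 1 of 5 markers of these cells called, and it fell in Van against Con by 0.83 on the log2 scale (adjusted p = 0.000480). Of 5 dendritic cell markers 3 were called lower in Van, with log2 fold changes of -1.12 for Clec9a (adjusted p = 1.55e-05), -0.85 for Xcr1 (adjusted p = 0.00897) and -0.89 for Siglech (adjusted p = 0.0474), from 3.03 FPKM or less. The other two did not pass, and Flt3, the most abundant of the 5, had the opposite sign at 0.25 (adjusted p = 0.608, 7.23 to 8.81 FPKM in Con and 9.11 to 10.3 in Van), while Zbtb46 was at -0.18 (adjusted p = 0.787). The part of either cell type in the complement values was not tested.

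C3ar1, the receptor for C3a, was scarce in all libraries. Its FPKM was 0.197, 0.353 and 0.360 in Con, 0.226, 0.279 and 0.297 in Van, and 0.372, 0.261 and 0.361 in VanLip. The groups overlapped in all 3 comparisons. The difference from Con on the log2 scale was -0.19 in Van (SE 0.31, adjusted p = 0.894) and 0.11 in VanLip (SE 0.30, adjusted p = 0.908). VanLip against Van gave 0.31 (SE 0.30, adjusted p = 0.648). The VanLip values were 0.01 and 0.21 without VanLip replicate 1. Behind them were 53 to 110 counts per library in Con and Van and 230 to 351 in VanLip. The 95% interval of the fold for Van over Con ran from 0.57 to 1.34, so that a fall or a rise within that range remained possible.

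Cd55, which protects cells from complement by taking its convertases apart, was the one gene of the 9 that passed the test between VanLip and Con. Its FPKM was 1.30, 1.93 and 1.33 in Con, 2.34, 2.29 and 1.64 in Van, and 5.33, 1.98 and 2.19 in VanLip. All VanLip libraries were above all Con libraries, but the second VanLip value of 1.98 exceeded the second Con value of 1.93 by little, and the first VanLip value was far above every other library, the next highest being 2.34 in Van. The fold for VanLip over Con was 2.12 (95% interval 1.36 to 3.32, log2 fold change 1.09, SE 0.33, adjusted p = 0.0215). Without VanLip replicate 1 the log2 fold change was 0.49 and did not pass (adjusted p = 0.209), so the call rested on that library. It was also lost without Con replicate 1 (adjusted p = 0.116) or Con replicate 3 (adjusted p = 0.105), by edgeR (adjusted p = 0.142) and by limma on log2(FPKM + 1) (adjusted p = 0.404). Van against Con gave a log2 fold change of 0.53 (SE 0.33, adjusted p = 0.497) with overlapping libraries. VanLip against Van gave 0.56 (SE 0.33, adjusted p = 0.334), which became -0.03 without VanLip replicate 1. Outside the erythroid list, 2 scarce markers were called between VanLip and Con, both lower. They were the dendritic cell marker Xcr1 (log2 fold change -0.73, adjusted p = 0.0182) and the neutrophil marker Ngp (-1.94, adjusted p = 0.0373). Flt3, a more abundant dendritic cell marker, was at 0.32 and not called. The part of these cells in the Cd55 values was not tested.

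In sum over the 9 genes, 1 was called between Van and Con (C5ar1, higher), 1 between VanLip and Con (Cd55, higher) and 0 between VanLip and Van. Over all genes with an adjusted p, 4.34% of 18516 were called between Van and Con, 6.67% of 16552 between VanLip and Con and 9.86% of 18025 between VanLip and Van. With 9 genes, counts of 1, 1 and 0 are near these shares. At an unadjusted p under 0.05 there were 3 (C1qb, Cfp and C5ar1), 3 (C3, C5ar1 and Cd55) and 2 (C1qb and C3) of the 9, where 11.1%, 13.0% and 15.4% of all 25441 genes tested had such a p. None of the 9 was called by edgeR in any comparison. The libraries did not overlap by FPKM for 3 genes between Van and Con (C1qb, Cfp and C5ar1) and 3 between VanLip and Con (Cfp, C5ar1 and Cd55), all higher in the treated group, and for 0 between VanLip and Van. Among the 17011 genes with a value above 0 in all 9 libraries, 20.1%, 23.4% and 26.1% did not overlap in these comparisons. The median log2 fold change of the 9 was 0.25, 0.11 and -0.09 in the 3 comparisons, beside 0.00, 0.01 and 0.02 over all 25441 genes tested. Van against Con and VanLip against Con share the Con libraries, and a Con library that is low in a gene raises both values.

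**Figure D3:**
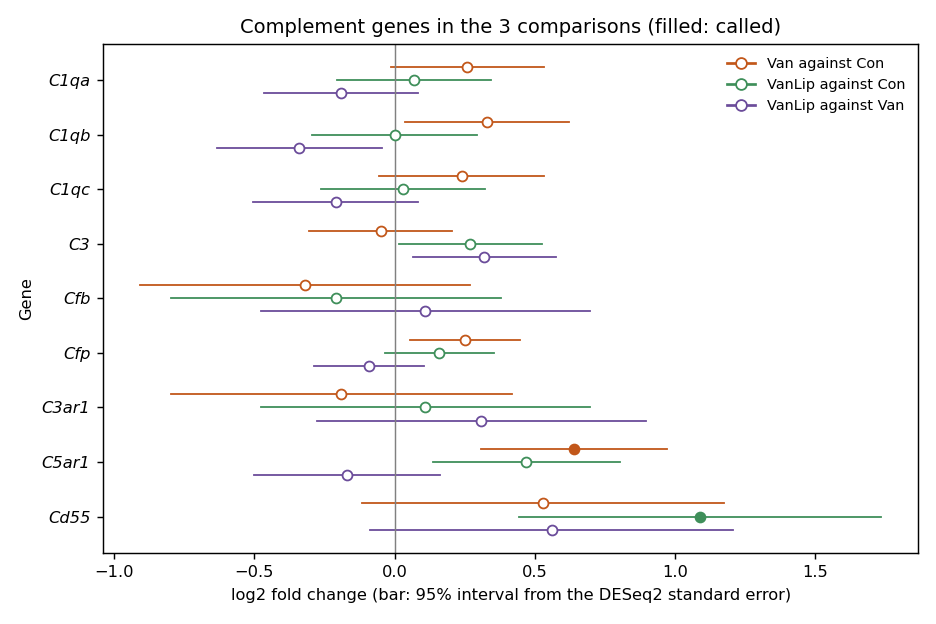
Log2 fold change of the 9 complement genes in the 3 comparisons, with bars for the 95% interval from the DESeq2 standard error and filled points for an adjusted p of 0.05 or under. The filled points are C5ar1 between Van and Con at 0.64 and Cd55 between VanLip and Con at 1.09, and the widest bars belong to Cd55, C3ar1 and Cfb.

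Of 42 other complement genes with a row in the tables, 33 were detected in some library and 15 had a mean FPKM of at least 1 over the 9 libraries. The most abundant were the receptor integrin genes Itgb2 (435.2 to 526.2 FPKM) and Itgam (173.9 to 239.5), which encode complement receptor 3, and the ficolin gene Fcna (121.4 to 233.8), a lectin pathway recognition molecule. Cr1l, which encodes the rodent convertase regulator Crry, was at 39.8 to 43.9 FPKM in the 9 libraries, far above Cd55. Serine proteases that act beside C1q were present at lower levels, with C1ra at 1.12 to 2.04 FPKM and C2, the classical protease, at 4.02 to 7.30. Transcripts of the lectins Mbl1 and Mbl2 and of the terminal components C7, C8b and C9 were listed at 0 in all 9 libraries, and C5, encoded by Hc, did not exceed 0.293 FPKM, whereas C6 was at 15.1 to 26.8.

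Of these other complement genes, 1 was called between Van and Con, 0 between VanLip and Con and 2 between VanLip and Van, where 27, 24 and 26 of them had an adjusted p. The shares of all genes called were 4.34%, 6.67% and 9.86%. The numbers with an unadjusted p under 0.05 were 6, 4 and 5 of the 33 tested, or 18.2%, 12.1% and 15.2%, beside 11.1%, 13.0% and 15.4% of all genes, and edgeR called none of the 33 in any comparison. C1ra, the C1r protease that C1q activates, was at 1.73, 1.80 and 2.04 FPKM in Con, 1.12, 1.26 and 1.40 in Van, and 1.75, 1.50 and 1.95 in VanLip. It fell in Van against Con by 0.57 on the log2 scale (SE 0.17, adjusted p = 0.0211), opposite in sign to the C1q chain estimates, and the 3 Van libraries were below all others. This call was lost without any 1 of the Con libraries or without Van replicate 1 or 2 (adjusted p up to 0.164), and its paralog C1rb, with which it may share reads, was at 0.234 to 0.473 FPKM.

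Fcnb, a ficolin of myeloid cells, was at 0.712, 1.06 and 1.14 FPKM in Con, 0.273, 0.736 and 0.918 in Van, and 1.55, 2.16 and 1.28 in VanLip. All VanLip libraries were above all Van libraries, and the log2 fold change was 1.37 (SE 0.41, adjusted p = 0.0143). That call was lost without Van replicate 1 (adjusted p = 0.0678) or VanLip replicate 2 (adjusted p = 0.128). Monocyte and dendritic cell markers were called higher in the same comparison, with log2 fold changes of 1.04 for Ccr2 (adjusted p = 7.38e-07), 0.39 for Ly6c2 (adjusted p = 0.0262), 0.43 for Cx3cr1 (adjusted p = 0.00264), 0.67 for Clec9a (adjusted p = 0.0164) and 0.85 for Siglech (adjusted p = 0.0299). These were 2 of 5 classical monocyte, 1 of 6 nonclassical monocyte and 2 of 5 dendritic cell markers, and their part in the complement values was not tested. C4a was called lower in VanLip than in Van (log2 fold change -0.81, SE 0.26, adjusted p = 0.0267) at 0.237 to 0.490 FPKM, and it is uncertain because it may share reads with its near-identical copy C4b, which was at 1.12 to 3.45 FPKM. C4b had a similar estimate in that comparison (-0.73, adjusted p = 0.0604). The log2 ratio of the mean FPKM of C4a was smaller in size, at -0.51. The C4a call was lost without Van replicate 1 or 2 or VanLip replicate 1 or 2. The median log2 fold change of the 33 tested was 0.00, 0.22 and 0.20 in the 3 comparisons, and among the 15 with a mean FPKM of at least 1 it was 0.03, -0.01 and 0.03.

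Among the 9 genes themselves, the closest pairs outside C1q over the 9 libraries were C3 with Cd55 (r = 0.82), C5ar1 with Cd55 (r = 0.74) and C1qa with Cfp (r = 0.72), and C1qb with C3 was the most negative (r = -0.66). Without VanLip replicate 1, r was -0.00 for C3 with Cd55 and 0.07 for C1qb with C3, so both rested on that library, whereas it was 0.76 for C5ar1 with Cd55 and 0.89 for C1qa with Cfp. All of these are Pearson correlations of log2(FPKM + 1), given as descriptions. Among 11687 other genes with a mean FPKM of at least 1, the patterns nearest to C1qa over all 9 libraries were those of Clstn1 (r = 0.98) and Cd81 (r = 0.97), and Cd81 was also nearest to C1qc (r = 0.96), followed by Stk39 (r = 0.95). For C1qb they were Cdca8 (r = 0.98) and Rnf31 (r = 0.97). For C3 they were Ccny (r = 0.95) and Aoah (r = 0.93), for Cfp Col11a2 (r = 0.97) and Trap1 (r = 0.95), and for Cfb Zbtb46 (r = 0.97) and Map4k3 (r = 0.94). For C5ar1 they were Isca1 (r = 0.96) and Zfp335 (r = 0.95), for Cd55 Gpn3 (r = 0.96) and Pdcl (r = 0.95), and for C3ar1 Zhx1 and Pin4 (both r = 0.94). With 9 libraries and so many candidates, values of this size are found for every one of the 9 genes and single none of them out.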

How the data were processed

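RNA was measured in 9 libraries of enriched mouse splenic monocytes, 3 per group, made with a stranded messenger RNA kit. Per the labels and the study's methods, the authors aligned reads to GRCm38 with HISAT2 2.2.1, used SAMtools 1.9, estimated FPKM per gene with StringTie 2.1.3 and deposited these FPKM values. The authors also deposited expected counts made from the StringTie output with tximport. The annotation release is not given in the sources used here, and coordinates came from GENCODE release M21. The StringTie and tximport steps spread reads over transcripts, so genes that overlap or share sequence can exchange counts.

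Groups came from the sample titles. Expected counts were rounded and tested with the DESeq2 1.42.0 Wald test (R 4.3.3) in 1 fit of all 9 libraries, with Benjamini-Hochberg adjustment over all genes and calls at an adjusted p of 0.05 or under. FPKM values were used for levels. Replicates were separate mice, but how they were spread over cages and runs is not given in the sources used here, and p-values measure only the spread between these libraries. Alternatives were edgeR 4.0.16 quasi-likelihood, TMM sizes, at least 10 counts in at least 3 libraries, only the groups compared, a replicate block, VanLip thinned to the mean fragment number of the other libraries, limma 3.58.1 on log2(FPKM + 1), on log2(FPKM + 0.1) and after a filter at a mean FPKM of 1, each library left out and, chosen after seeing the data, counts converted to fragments. The scripts were tested on simulated data. The 9 genes, the lists of other complement and marker genes, the motifs and the tests were chosen with earlier results of these data known. Named were all 9 genes, other complement genes called in any comparison, abundant ones by range, marker genes set beside a result, and the 2 genes nearest to each of the 9 in pattern. Absent and abundant complement genes given as examples (Cr1l, C2, C6, Hc, Fcna, Itgb2, Itgam, Mbl1, Mbl2, C7, C8b, C9) were chosen after their values were seen. Some genes of these lists are not reported here.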

Additional observations from a re-analysis of the deposited data

How the results depend on the processing

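Of 510 alternative values of the 27 fold changes of the 9 genes, 492 kept their direction. The 18 that did not belonged to 7 results, none of them called. C1qb in VanLip against Con (-0.00) was 0.01 by edgeR, 0.02 with TMM sizes, 0.00 with only the groups compared and -0.14 to 0.17 with 1 library left out. C1qc there was -0.02 by each of the 3 limma fits and -0.08 to 0.17 with 1 library left out, C1qa -0.05 to 0.20 and C3ar1 -0.12 to 0.26. With 1 library left out, C3 in Van against Con was -0.10 to 0.00, Cfb in VanLip against Van -0.21 to 0.32 and Cd55 in VanLip against Van -0.03 to 0.81, the low end being without VanLip replicate 1. The number of the 9 genes called between Van and Con (1) was 0 by edgeR and by all 3 limma fits, 3 with only the groups compared (C1qb, Cfp and C5ar1), and 0 to 2 with 1 library left out, with 0 without Con replicate 1 or 3 and 2 without VanLip replicate 1, while without Van replicate 1 the 1 gene called was Cfp in place of C5ar1. Between VanLip and Con (1) it was 0 by edgeR and by all 3 limma fits, 2 with TMM sizes, 2 with the replicate block (C5ar1 and Cd55) and 0 to 2 with 1 library left out, with 0 without Con replicate 1 or 3 or VanLip replicate 1 and 2 without Van replicate 1 or VanLip replicate 3. Between VanLip and Van (0) it was 0 to 1 with 1 library left out, as C3 was called without VanLip replicate 2 and C1qb without VanLip replicate 3. Thinning VanLip, and converting counts to fragments, left C5ar1 in Van (adjusted p = 0.00792 and 0.00870) and Cd55 in VanLip (adjusted p = 0.0243 and 0.0361) called. Of the other complement genes, the number called between Van and Con (1) was 0 by edgeR, with VanLip thinned, with counts converted to fragments and by all 3 limma fits, 2 with the replicate block, 4 with only the groups compared (C1ra, C2, Cd93 and Itgam) and 0 to 3 with 1 library left out. Between VanLip and Con (0) it was 0 to 1 with 1 library left out. Between VanLip and Van (2) it was 0 by edgeR and by all 3 limma fits, 1 (Fcnb) with VanLip thinned or counts converted to fragments, 3 (C1ra, C4a and Fcnb) with TMM sizes or the filter at 10 counts and 0 to 4 with 1 library left out. The cause of these shifts was not tested.

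Replicate numbers were shared by the groups, but same-numbered libraries did not deviate together (correlations of their deviations -0.06 to 0.12) and not every library correlated best with its own number, so the numbers were taken as names. With the replicate block C5ar1 passed the test in VanLip against Con (log2 fold change 0.44, adjusted p = 0.0281), and C4a in VanLip against Van no longer passed (-0.82, adjusted p = 0.0661). Over all genes, calls between Van and Con numbered 803 by DESeq2 and 204 by edgeR, between VanLip and Con 1104 and 300, and between VanLip and Van 1777 and 855. With 3 mice per group and standard errors of 0.10 to 0.33, small changes of these genes could not be seen, and those of Cd55, Cfb and C3ar1 least of all.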
